A study of Mus musculus with 6 samples.

Results

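The genes described here encode the metalloproteinases and their tissue inhibitors in cells sorted as ureteric bud derivatives from newborn mouse kidneys. Members were all array probes, control probes left out, whose RefSeq accession maps to a mouse symbol made of Mmp, Timp, Adam or Adamts and a number. This rule gave 70 genes (20 Mmp, 4 Timp, 27 Adam and 19 Adamts) of the 20887 genes named on the array, with 95 of its 55681 probes. A gene was tested if a probe was well above background in all 3 pools of at least 1 group, which 38 members were (8 Mmp, 3 Timp, 13 Adam and 14 Adamts). Symbols with a letter after the number, such as Mmp1a, fall outside the rule, and Mmp27 had no matched probe.

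MUT pools 1 to 3 came from Hoxb7cre+; R26RtdTomato; Bdkrb2f/f mice, in which the bradykinin B2 receptor gene is deleted where the Hoxb7 driver of Cre is active, in the ureteric lineage. WT pools 1 to 3 came from mice with the same Cre and reporter alleles and Bdkrb2+/+. Both groups were C57BL/6, were salt-stressed and were taken at postnatal day 1, and the cells were sorted for GFP and tdTomato. How many animals made up a pool, and what carried the GFP, are not given in the sources used here. Each pool, labelled with Cy5, was hybridised against the same Cy3-labelled RNA of WT pool 1, so every value below is a log2 ratio of a pool to WT pool 1, and the array of WT pool 1 sets that RNA against itself.

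Between 27030 and 31322 probes per array were well above background, and precision is set by there being 3 arrays in each group. Bdkrb2 itself was not well above background on any of the 6 arrays and gives no check of the labels. Of 14 collecting duct and ureteric epithelial markers, 13 were tested and all 13 fell in MUT pools, with medians between -1.99 and -1.54 in MUT pools against -0.09 to -0.04 in WT pools. Of 12 renal stroma markers, 10 rose and none fell, with medians of 1.12 to 1.38 in MUT pools against 0.12, -0.90 and -1.15 in WT pools 1 to 3. Nephron progenitor markers (7 of 8) and leukocyte markers (10 of 12, with 1 lower) rose, and endothelial markers (9 of 10) and proximal tubule markers (3 of 8) fell. In such pools a change in the share of a cell type and a change in RNA per cell cannot be told apart.

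All 3 proteinase families are zinc-dependent enzymes. The Mmp genes encode matrix metalloproteinases, which cut collagens and other matrix proteins and are made as inactive precursors. Adam genes encode membrane proteins, many of which release growth factors and receptors from the cell surface, while Adamts genes encode secreted enzymes that process procollagens and cut proteoglycans. The tissue inhibitors encoded by the Timp genes block these enzymes by binding the catalytic site. In the developing kidney, turnover of the matrix around the ureteric epithelium accompanies branching.

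Promoter sequences were looked at because the members differed first in whether they were detected at all. RefSeq promoter windows (GRCm38.p6) were found for 41 members, 21 of them tested and 20 not. The 250 bases before the start were searched on both strands for the AP-1 motif TGANTCA, the GC box GGGCGG or CCGCCC, and TATAAA or TTTATA. The 4 windows below, each the 120 bases before the start of a matrix metalloproteinase gene of chromosome 9 that was not tested, are shown with the AP-1 motif in capitals. They lie at chr9:7445702-7445821, chr9:7502222-7502341, chr9:7347254-7347373 and chr9:7272394-7272513, all on the + strand.
Mmp3: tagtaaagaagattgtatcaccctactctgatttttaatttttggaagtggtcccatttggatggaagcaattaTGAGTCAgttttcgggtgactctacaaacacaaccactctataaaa
Mmp10: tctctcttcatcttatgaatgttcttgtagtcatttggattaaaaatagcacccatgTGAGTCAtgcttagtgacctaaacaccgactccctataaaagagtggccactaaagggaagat
Mmp12: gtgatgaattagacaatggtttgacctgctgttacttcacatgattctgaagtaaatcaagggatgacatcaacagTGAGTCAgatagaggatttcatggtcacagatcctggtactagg
Mmp13: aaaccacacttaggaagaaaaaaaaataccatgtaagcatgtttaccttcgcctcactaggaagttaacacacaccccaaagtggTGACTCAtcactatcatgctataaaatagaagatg

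All 6 such genes of chromosome 9 with a window (Mmp3, Mmp7, Mmp10, Mmp12, Mmp13 and Mmp20) held the AP-1 motif, as did 9 of the 20 members not tested, 1 of the 21 tested members (Adam19) and 7.82% of all 27025 genes with a window. The TATA motif was present in 5 of these 6 genes, in 7 members not tested, in 1 tested member (Adamts1) and in 14.3% of all genes. The GC box showed the other distribution, with 15 of 21 tested members, 5 of 20 members not tested, none of the 6 chromosome 9 genes and 35.4% of all genes. Among members with a window, 5 of 8 that rose in MUT pools held a GC box, as did 1 of 2 that fell (Adam15). For contrast with the AP-1 windows, the same stretch of 4 of these 5 is shown with GC boxes in capitals. They lie at chrX:20870046-20870165 and chr11:50601965-50602084 on the + strand and chr10:75932503-75932622 and chr10:61273420-61273539 on the - strand.
Timp1: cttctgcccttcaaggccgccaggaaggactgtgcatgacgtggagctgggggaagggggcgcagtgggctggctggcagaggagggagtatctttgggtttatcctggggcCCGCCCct
Mmp11: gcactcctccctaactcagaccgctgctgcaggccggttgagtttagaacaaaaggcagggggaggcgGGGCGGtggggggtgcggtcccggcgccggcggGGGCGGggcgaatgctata
Adamts2: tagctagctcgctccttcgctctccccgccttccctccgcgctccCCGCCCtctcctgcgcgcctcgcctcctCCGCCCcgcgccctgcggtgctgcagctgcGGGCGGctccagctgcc
Adamts14: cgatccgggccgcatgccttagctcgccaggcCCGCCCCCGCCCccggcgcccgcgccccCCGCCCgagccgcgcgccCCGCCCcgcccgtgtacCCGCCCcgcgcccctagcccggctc

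A motif match describes these letters only, and some members have more than 1 start in the table. The AP-1 motif began 46 bases before the start in Mmp3, 63 in Mmp10, 44 in Mmp12 and 35 in Mmp13. In Adamts14 the window held 5 GC boxes that do not overlap, against 3 in Adamts2, 2 in Mmp11 and 1 in Timp1.

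Of the 38 tested members, 13 rose and 4 fell in MUT pools at an adjusted p under 0.05. Over all 14594 genes tested, 14.0% rose and 18.8% fell (32.7% in either direction), and 26.1% of all probes tested were called. The median log2 difference was 0.34 over the tested members and -0.02 over all genes tested. The groups did not overlap for 24 tested members, 15 with all MUT pools higher and 9 with all MUT pools lower. Among all genes tested 52.5% did not overlap, 24.2% with all MUT pools higher and 28.3% with all MUT pools lower. Adam23, Mmp9, Mmp8 and Adamts8 entered the test only through the MUT pools, with differences of 0.83, 0.35, 0.40 and 0.10. The other 34 tested members were above background on all 6 arrays. Adam23 is among the 13 rises, and Adam23 and Mmp9 are among the 15, so these counts and the median lean upward through the filter. By family, 3 of 8 tested Mmp genes, 1 of 3 Timp genes, 7 of 14 Adamts genes and 2 of 13 Adam genes rose, and 1 Adamts and 3 Adam genes fell. The stroma, nephron progenitor and leukocyte marker lists moved with these rises, with median differences of 1.78, 1.92 and 0.99, and the epithelial list moved the other way (-1.67), and their part in the results was not tested.

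**Figure D1:**
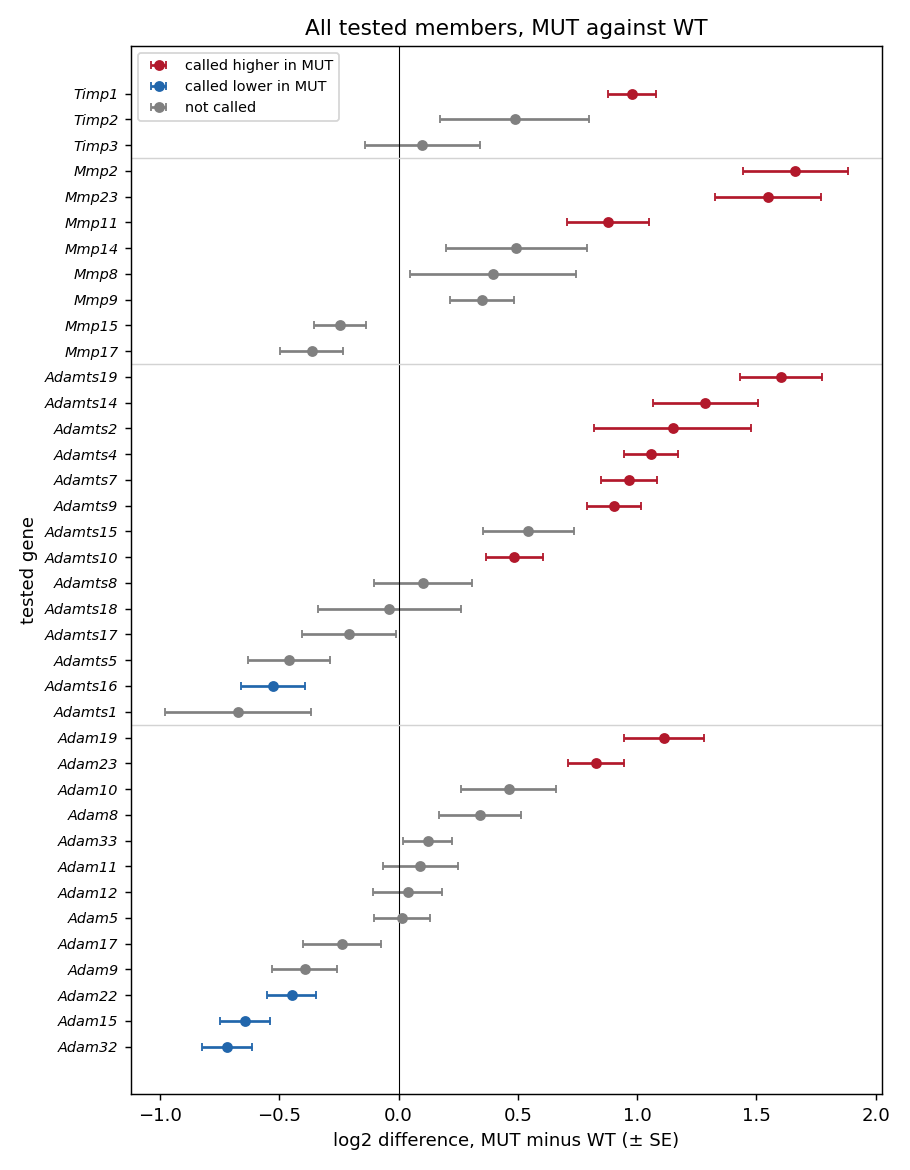
Log2 difference between MUT and WT pools (x axis, ± SE, 3 pools per group) for the 38 tested members, grouped from top to bottom as Timp, Mmp, Adamts and Adam. Red points were called higher in MUT pools (13), blue points lower (4) and grey points were not called (21), and the rises reach 1.66 (Mmp2) and the called falls -0.72 (Adam32).

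These directions are relative to the typical probe. After loess the median difference of all tested probes was 0.00, while centring each array on its median moved it to 0.23, and setting arrays to the 10 spike-in control probes moved it to 0.95. All 13 rises stayed above 0 under both scalings and in every alternative setting run for them, 19 for each gene and 18 for Adam23. Part of this was fixed in advance. The spike-in scaling only adds to a difference, and leaving out 1 pool cannot reverse groups that do not overlap. Setting arrays to the spike-in controls adds 0.95 to the difference of every gene, so by construction the 4 members called lower came to 0.23 (Adam32) to 0.50 (Adam22), above 0 and not called. The spike-in shift itself was -0.70, -0.55 and -0.18 in MUT pools 1 to 3 against 0.01, 0.39 and 1.01 in WT pools 1 to 3. WT pools 2 and 3 lay in another row of the slide than the other 4 arrays. With that row as a block, where each difference is that of the MUT mean to WT pool 1, 7 of the 17 called members were still called: Mmp2, Mmp23, Timp1, Adamts4, Adamts7, Adamts9 and Adamts19. The 4 falls were about as large with the row as a block (-0.43 in Adam22 to -0.69 in Adam15) but were not called. The same 7 were called in every alternative setting.

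Among the matrix metalloproteinases, the gelatinase Mmp2, Mmp23, which is tethered to the membrane until it is cleaved, and the stromelysin Mmp11 rose. Mmp2 had log2 ratios of 1.14, 1.17 and 1.31 in MUT pools 1 to 3, against -0.19, -0.17 and -1.01 in WT pools 1 to 3. The MUT pools lay close together and above every WT pool, and WT pool 3 was well below the other WT pools. The rise was 3.17-fold (log2 1.66 ± 0.22 SE, n = 3 and 3, adjusted p = 0.00168), and 2.63-fold with the slide row as a block. It was the largest rise of any member here, but not in every alternative setting. With median centring Adamts19 was at 2.06 and Mmp2 at 2.04, and without WT pool 3 they were at 1.47 and 1.39. Adamts19 was also the higher of these genes without MUT pool 3, with the scanner processed signals and with the authors' deposited table.

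Mmp23 had ratios of 0.84, 0.66 and 0.84 in MUT pools 1 to 3, against -0.23, -0.88 and -1.19 in WT pools 1 to 3. Here too the WT pools were spread and the MUT pools were not (SD 0.10 in MUT and 0.49 in WT). The rise was 2.92-fold (log2 1.55 ± 0.22 SE, n = 3 and 3, adjusted p = 0.0024). Mmp11 had ratios of 0.99, 0.89 and 0.98 in MUT pools against 0.25, 0.31 and -0.33 in WT pools 1 to 3. It rose 1.84-fold (log2 0.88 ± 0.17 SE, n = 3 and 3, adjusted p = 0.00858), its other tested probe rose by 0.96, and the call ended with the slide row as a block (adjusted p = 0.149).

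The membrane-type enzymes did not pass the test. Mmp14, the membrane-type enzyme that activates the Mmp2 precursor, had ratios of -0.51, 0.43 and 0.75 in MUT pools 1 to 3, against -0.25, -0.09 and -0.47 in WT pools 1 to 3. MUT pool 1 lay below all WT pools and the other MUT pools above them (log2 0.49 ± 0.30 SE, n = 3 and 3, adjusted p = 0.257). Mmp17, which is held at the membrane by a lipid anchor, had ratios of -0.34, -0.51 and -0.32 in MUT pools against 0.10, 0.09 and -0.27 in WT pools. The groups did not overlap, but the difference of -0.36 ± 0.13 (SE, n = 3 per group) missed the threshold (adjusted p = 0.0796). Mmp15 was at -0.25 ± 0.11 (SE, adjusted p = 0.136), and Mmp8, the neutrophil collagenase, at 0.40 ± 0.35 (SE, adjusted p = 0.437).

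Mmp9, the other gelatinase, was well above background in all 3 MUT pools and in no WT pool. Its ratios were 0.39, 0.14 and -0.00 in MUT pools against -0.02, -0.28 and -0.21 in WT pools 1 to 3. It was at least 1.18-fold higher in MUT pools but was not called (adjusted p = 0.0913). This and the other such bounds set the mean Cy5 signal of the brighter group against a floor for the dimmer group, after loess and quantile adjustment of the arrays, and are open to dye bias because no dyes were swapped. The other 12 Mmp genes on the array were not tested, and 8 of them (Mmp3, Mmp7, Mmp12, Mmp19, Mmp21, Mmp24, Mmp25 and Mmp28) were at background on all 6 arrays. Mmp10, a stromelysin, was well above background in 2 of 3 MUT pools and in no WT pool, with no test. Its bound was 1.23-fold towards MUT pools, but its groups overlapped. Its ratios were 0.51, 0.07 and 0.39 in MUT pools against -0.04, 0.13 and -0.35 in WT pools 1 to 3. Mmp13, well above background in 1 MUT pool alone, had a bound of 1.07-fold towards MUT pools. Mmp20, well above background in 1 WT pool alone, had a bound of 1.33-fold towards WT pools.

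The tissue inhibitors differed from one another. Timp1 had ratios of 1.19, 1.03 and 1.15 in MUT pools 1 to 3, against 0.24, 0.12 and 0.08 in WT pools 1 to 3. Both groups were tight (SD 0.08 in MUT and 0.09 in WT) and far apart. It rose 1.97-fold (log2 0.98 ± 0.10 SE, n = 3 and 3, adjusted p = 0.000647), the smallest adjusted p of any member, and 1.84-fold with the slide row as a block.

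Timp2, which inhibits the enzymes and also takes part in the activation of Mmp2 by Mmp14, had ratios of -0.17, 1.08 and 1.07 in MUT pools 1 to 3, against 0.19, 0.27 and 0.07 in WT pools 1 to 3. MUT pools 2 and 3 were nearly equal and above all WT pools, and MUT pool 1 was below them. The difference was not called (log2 0.49 ± 0.31 SE, n = 3 and 3, adjusted p = 0.289). At the other tested probe of Timp2 the ratios were 0.39, 0.28 and 0.03 in MUT pools against 0.02, 0.03 and -0.06 in WT pools, so there MUT pool 1 was the highest and not the lowest, and this probe was not called either (log2 0.23 ± 0.12 SE). Timp3, which is bound to the matrix and also inhibits Adam17, had ratios of -0.67, 0.17 and 0.18 in MUT pools against 0.05, -0.40 and -0.28 in WT pools, again with MUT pool 1 lowest (log2 0.10 ± 0.24 SE, adjusted p = 0.792). Timp4 was well above background in 2 of 3 MUT pools and in no WT pool and was not tested, and its mean ratio was 0.10 in MUT pools and 0.10 in WT pools.

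**Figure D2:**
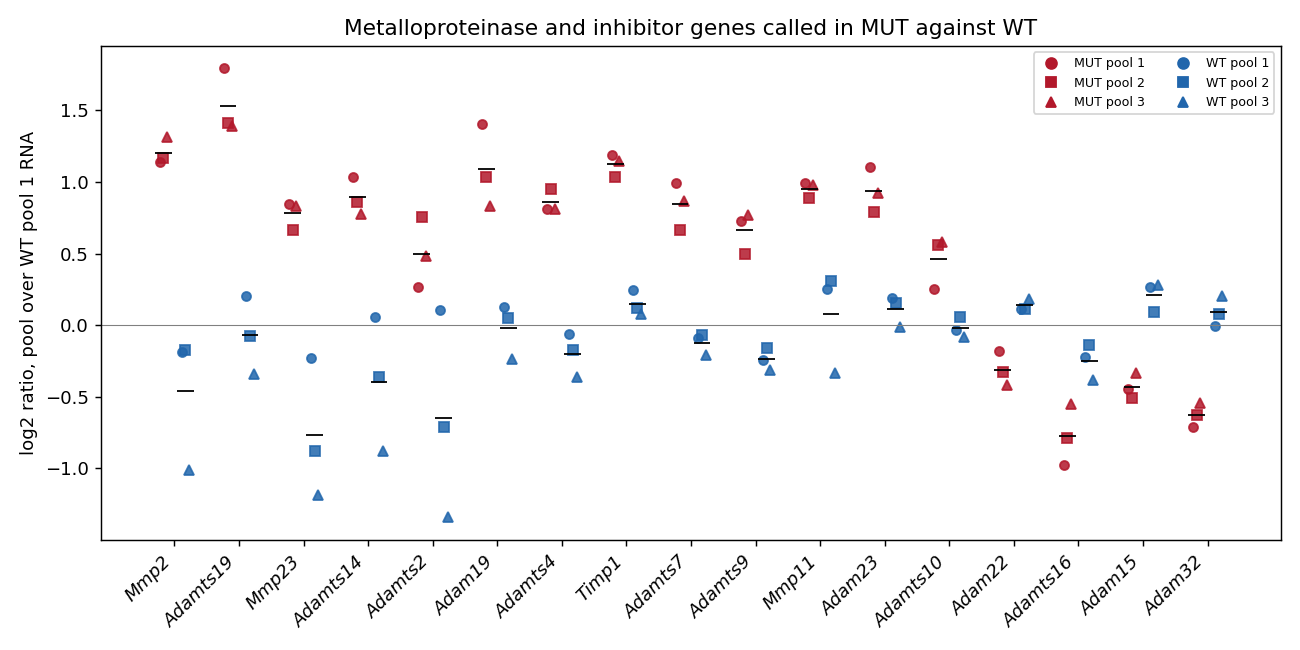
Log2 ratio of each pool to WT pool 1 RNA (y axis) for the 17 called members, ordered by difference, with MUT pools in red at left and WT pools in blue at right; black bars are group means. The groups do not overlap for any of the 17, and WT pool 3 is the lowest of the 6 arrays in all 13 members that rose.

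WT pool 3 was the lowest array for all 13 members that rose, and for 67.5% of the 2040 genes that rose in all. The stroma markers were also lowest in WT pool 3 (medians 0.12, -0.90 and -1.15 in WT pools 1 to 3), as were the leukocyte markers (-0.08, -0.43 and -0.64). The part of these markers in the rises was not tested. Without WT pool 3, 11 members rose and 3 fell. Calls that ended without it were Adam22, Adamts10, Adamts16 and Adamts2 (adjusted p of 0.0747, 0.0937, 0.0533 and 0.1), and Mmp17 was called (log2 -0.49).

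In the Adamts family, both tested procollagen N-proteinases, Adamts14 and Adamts2, rose. Each rise is that of 1 probe, and the other probe of each gene was at background on all 6 arrays. Adamts14 had ratios of 1.04, 0.86 and 0.78 in MUT pools 1 to 3, against 0.06, -0.36 and -0.88 in WT pools 1 to 3, a rise of 2.44-fold (log2 1.29 ± 0.22 SE, n = 3 and 3, adjusted p = 0.00487). Adamts2 had ratios of 0.26, 0.75 and 0.48 in MUT pools against 0.11, -0.71 and -1.34 in WT pools. The lowest MUT pool lay just above WT pool 1, and the rise of 2.22-fold (log2 1.15 ± 0.33 SE, n = 3 and 3, adjusted p = 0.0369) had the largest adjusted p of the 13. The call of Adamts2 was lost in 9 of 19 alternative settings. With the slide row as a block Adamts2 was at 0.39 (adjusted p = 0.47) and Adamts14 at 0.83 (adjusted p = 0.0841). Adamts3, the remaining enzyme of this kind, was at background on all 6 arrays.

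Among the 7 Adamts genes known for cutting proteoglycans, 2 of the 6 tested rose, Adamts4 and Adamts9. Adamts4, an aggrecanase, had ratios of 0.81, 0.95 and 0.81 in MUT pools 1 to 3, against -0.06, -0.17 and -0.36 in WT pools 1 to 3. It rose 2.08-fold (log2 1.06 ± 0.11 SE, n = 3 and 3, adjusted p = 0.000754), and no MUT pool came near a WT pool. Adamts9, which cuts versican, had ratios of 0.73, 0.50 and 0.77 in MUT pools against -0.24, -0.16 and -0.32 in WT pools, a rise of 1.87-fold (log2 0.90 ± 0.11 SE, adjusted p = 0.00127).

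The other proteoglycan-cutting members were not called and did not share a sign. Adamts15 was at 0.54 ± 0.19 (SE, adjusted p = 0.0719), with ratios of 0.57, 0.21 and 0.02 in MUT pools against 0.05, -0.36 and -0.52 in WT pools, and was called with median centring (log2 0.86) and without WT pool 1 (log2 0.71). Adamts5, an aggrecanase, had ratios of -1.05, -0.58 and -0.39 in MUT pools against -0.22, -0.33 and -0.09 in WT pools (log2 -0.46 ± 0.17 SE, adjusted p = 0.0884). At this probe all MUT pools lay below all WT pools, while at its other tested probe the groups overlapped (log2 -0.38 ± 0.24 SE). Adamts5 was called without MUT pool 3 (log2 -0.60, adjusted p = 0.0452) and was at -0.27 without MUT pool 1. Adamts1, whose loss in mice disturbs the kidney and ureter, had ratios of -1.49, -0.34 and -0.19 in MUT pools against -0.02, 0.02 and -0.01 in WT pools (log2 -0.67 ± 0.31 SE, adjusted p = 0.145). The WT pools of Adamts1 were nearly equal, and MUT pool 1 stood far below the other MUT pools. Without MUT pool 1 the difference of Adamts1 was -0.27. Adamts8 was at 0.10 ± 0.21 (SE, adjusted p = 0.747) and was well above background in 1 of 3 WT pools.

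Adamts19, known for its place in heart valve development, had the largest rise of the family. Its ratios were 1.79, 1.41 and 1.39 in MUT pools 1 to 3, against 0.20, -0.08 and -0.34 in WT pools 1 to 3. This was a rise of 3.04-fold (log2 1.60 ± 0.17 SE, n = 3 and 3, adjusted p = 0.000724), and of 2.51-fold with the slide row as a block. The size depended on the signal values used, and its log2 difference was 2.86 with scanner processed signals and 2.89 from the values of the authors' deposited table. Adamts7, which degrades cartilage oligomeric matrix protein, had ratios of 0.99, 0.67 and 0.87 in MUT pools against -0.09, -0.07 and -0.21 in WT pools, a rise of 1.95-fold (log2 0.97 ± 0.12 SE, adjusted p = 0.00113). Its groups were separated by more than the range of either.

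Adamts10, a protein of fibrillin microfibrils, had ratios of 0.25, 0.56 and 0.58 in MUT pools against -0.03, 0.06 and -0.08 in WT pools, and rose 1.40-fold (log2 0.49 ± 0.12 SE, n = 3 and 3, adjusted p = 0.0216). Adamts16 was the member of the family that fell. Its ratios were -0.98, -0.79 and -0.55 in MUT pools 1 to 3, against -0.22, -0.14 and -0.38 in WT pools 1 to 3, and it fell by 0.53 ± 0.14 on the log2 scale (SE, adjusted p = 0.0249). With 1 pool left out, Adamts10 ranged from 0.43 to 0.59 (the latter without MUT pool 1). Adamts16 ranged from -0.64 without MUT pool 3 to -0.42 without MUT pool 1. Their signs could not change, as the groups did not overlap, but their adjusted p crossed the threshold. Adamts10 lay between 0.43 and 0.48 and was no longer called without MUT pool 2, MUT pool 3, WT pool 1 or WT pool 3 (adjusted p of 0.0712, 0.0663, 0.0724 and 0.0937), and Adamts16 lay between -0.59 and -0.47 without MUT pool 2 or any 1 WT pool and was not called (adjusted p of 0.0692, 0.0819, 0.0823 and 0.0533). The other tested probe of Adamts16 was at -0.25 and was not called. Adamts17 and Adamts18 were at -0.21 and -0.04, and Adamts6, Adamts12, Adamts13 and Adamts20 were not tested.

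Adam genes fall into membrane proteases of many tissues, non-catalytic neural proteins and a large set known mainly from the male reproductive tract. Of 8 tested proteases, Adam19 rose and Adam15 fell. Adam19, which releases neuregulin, had ratios of 1.41, 1.03 and 0.83 in MUT pools 1 to 3, against 0.13, 0.05 and -0.24 in WT pools 1 to 3, a rise of 2.16-fold (log2 1.11 ± 0.17 SE, n = 3 and 3, adjusted p = 0.00292). Adam15, a membrane protease that binds integrins, had ratios of -0.45, -0.51 and -0.33 in MUT pools against 0.26, 0.09 and 0.28 in WT pools, and fell by 0.64 ± 0.11 on the log2 scale (SE, adjusted p = 0.00397). The 2 genes thus moved in opposite directions with no overlap of the groups in either, and with the slide row as a block Adam19 was at 0.96 and Adam15 at -0.69, neither called (adjusted p of 0.0675 and 0.0521).

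The main sheddases of the family, Adam10 and Adam17, were not called. Adam10, which also cleaves Notch receptors, had ratios of 1.04, 0.42 and 0.24 in MUT pools 1 to 3, against 0.20, 0.11 and 0.01 in WT pools 1 to 3 (log2 0.46 ± 0.20 SE, adjusted p = 0.128). All its MUT pools lay above all WT pools, but by little for MUT pool 3, and without MUT pool 1 the difference was 0.22. Adam17, which releases several ligands of the epidermal growth factor receptor, was at -0.24 ± 0.16 (SE, adjusted p = 0.322), and its other tested probe was at 0.11. Adam9 had ratios of -0.50, -0.44 and -0.52 in MUT pools against 0.14, -0.35 and -0.07 in WT pools (log2 -0.39 ± 0.14 SE, adjusted p = 0.0692), and was called without WT pool 2 (log2 -0.52). Adam8, Adam12 and Adam33 were not called either, with differences of 0.34, 0.04 and 0.12.

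Among the non-catalytic neural members, Adam23 was higher and Adam22 lower, and Adam11 was not called (log2 0.09 ± 0.16 SE). Adam23 was well above background in all 3 MUT pools and in no WT pool, with ratios of 1.10, 0.79 and 0.92 in MUT pools against 0.19, 0.15 and -0.01 in WT pools. The difference was 0.83 ± 0.12 (SE, adjusted p = 0.0023) on the ratio scale, with the WT level only a bound. On another scale, Cy5 signal after loess and quantile adjustment, Adam23 was 1.96-fold higher in MUT pools (means of 7.36 and 6.39 in log2). There its WT signal was not below the floor, so this value is the plain difference of the means. Adam23 entered the test only through the MUT pools, where it was high, so its call is a description, and 12 members rose when only probes above background on all 6 arrays were tested. Its other tested probe, also above background in MUT pools alone, was not called. With scanner processed signals its difference was 2.12. Adam22, a synaptic receptor, had ratios of -0.18, -0.33 and -0.42 in MUT pools against 0.12, 0.12 and 0.18 in WT pools. It fell by 0.45 ± 0.10 on the log2 scale (SE, adjusted p = 0.0158), and the call ended without MUT pool 2, MUT pool 3, WT pool 1 or WT pool 3 (adjusted p of 0.0513, 0.0519, 0.0529 and 0.0747).

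Of 15 reproductive-tract members, 13 were not tested and 10 of these were at background on all 6 arrays. Chromosome 8 carries 10 of the 15, and 8 of those 10 were not tested. The exceptions there were Adam5, which was not called (log2 0.02 ± 0.12 SE), and Adam32. Adam32 had ratios of -0.71, -0.63 and -0.55 in MUT pools 1 to 3, against -0.01, 0.08 and 0.20 in WT pools 1 to 3, and fell by 0.72 ± 0.10 on the log2 scale (SE, adjusted p = 0.00243). With scanner processed signals it fell by 1.56. This probe was dim, with mean Cy5 signals after loess and quantile adjustment of 6.53 in MUT pools and 7.29 in WT pools in log2. The other probe of Adam32 was at background on all 6 arrays. The remaining 13 were Adam2, Adam3, Adam4, Adam7, Adam18, Adam20, Adam21, Adam24, Adam25, Adam29, Adam30, Adam34 and Adam39. Over all 32 members that were not tested, single log2 ratios lay between -0.35 and 0.51.

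The MUT pools themselves were not alike for several members. The SD over MUT pools was above 0.6 for 5 tested members (Timp2, Adamts1, Mmp8, Mmp14 and Adamts18), against a median of 0.17 over the 38, and none of the 5 was called. MUT pool 1 was the lowest MUT pool in 4 of them. Timp2 was 1.25 and Mmp14 was 0.94 lower in MUT pool 1 than in MUT pool 2. Adamts18 had ratios of -0.29, 0.90 and 0.63 in MUT pools 1 to 3, against 0.12, 0.70 and 0.54 in WT pools 1 to 3, so that MUT pool 1 and WT pool 1 were the lowest of their groups. Mmp8 showed another order, with 0.82, 0.11 and -0.57 in MUT pools 1 to 3, against 0.17, -0.34 and -0.66 in WT pools 1 to 3. Without MUT pool 1, Timp2 was called at 0.90 ± 0.11 (SE, adjusted p = 0.000265) and Mmp14 at 0.86 ± 0.14 (SE, adjusted p = 0.00162), and Adam17 was called lower (log2 -0.38). For Timp2 this is the result of 1 probe. At its other tested probe MUT pool 1 was the highest MUT pool (0.39, 0.28 and 0.03 in MUT pools 1 to 3). Leaving out MUT pool 1 also raised the number of probes called on the whole array, from 7584 to 9531. Both Timp2 and Mmp14 were also called with array weights (log2 0.81 and 0.79).

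**Figure D3:**
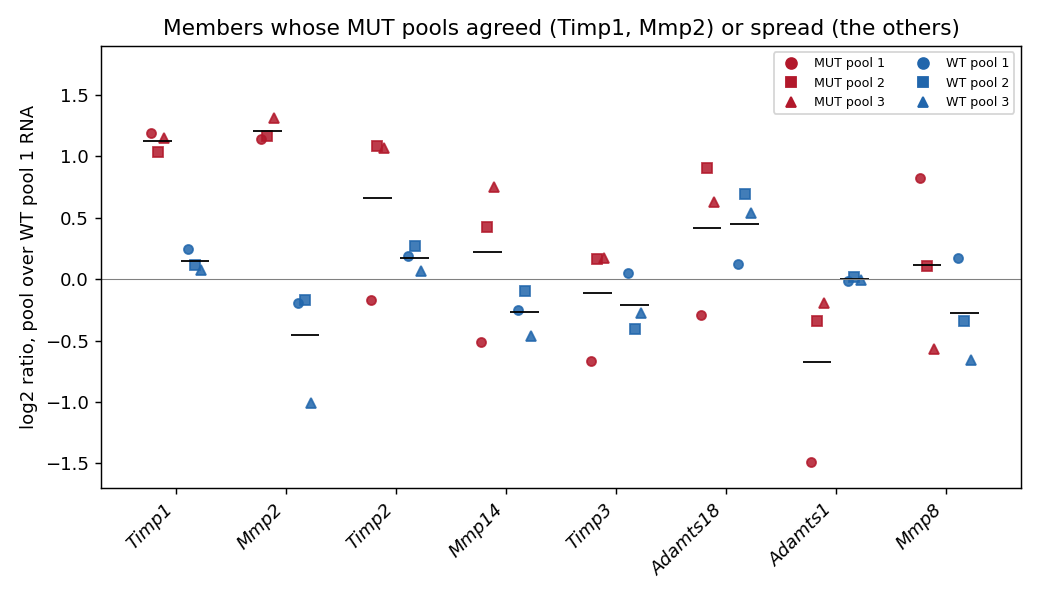
Log2 ratio of each pool to WT pool 1 RNA (y axis) for 2 members with close MUT pools (Timp1 and Mmp2), for Timp3, and for the 5 members with a MUT SD above 0.6, with MUT pools in red at left, WT pools in blue at right and group means as black bars. MUT pool 1 (red circle) is below MUT pools 2 and 3 in Timp2, Mmp14, Timp3, Adamts18 and Adamts1, and above them in Mmp8. At the other tested probe of Timp2, not shown, MUT pool 1 was the highest MUT pool.

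Genes that act with the proteinases were compared through 3 lists, of 43 genes in all, of which 42 were on the array and 32 were tested. In these lists 8 genes rose and 10 fell. Over all genes tested 14.0% rose and 18.8% fell, which stands beside the counts of each list below. Among activators and membrane regulators, 4 of 18 tested rose and 5 fell. Plau, the urokinase that starts the plasmin cascade and so the activation of metalloproteinases, had ratios of -2.86, -2.48 and -2.08 in MUT pools 1 to 3, against 0.03, -0.54 and 0.16 in WT pools 1 to 3. It fell by 2.36 ± 0.24 on the log2 scale (SE, n = 3 and 3, adjusted p = 0.000601), a fold of 5.13, and its groups were far apart. Plat, which encodes the other plasminogen activator of the list, rose 1.69-fold (log2 0.76 ± 0.22 SE, adjusted p = 0.0386). Tspan33 and Furin, an Adam10 partner and a convertase that activates precursors, fell by 1.03 ± 0.14 and 0.53 ± 0.12 (SE). Serpine2, an inhibitor of urokinase and thrombin, rose 2.50-fold (log2 1.32 ± 0.12 SE, adjusted p = 0.000459), Reck, a membrane-bound inhibitor of metalloproteinases, rose 2.14-fold (log2 1.10 ± 0.15 SE, adjusted p = 0.00178), and Tspan5, another Adam10 partner, rose by 0.58 ± 0.12 (SE).

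Of 8 tested Adamts-like and astacin-family genes, 2 rose and 2 fell. Adamtsl1, a secreted relative without a protease domain, rose by 1.07 ± 0.25 (SE, adjusted p = 0.0167) and was well above background in 2 of 3 WT pools. Bmp1, the procollagen C-proteinase, rose by 0.65 ± 0.14 (SE, adjusted p = 0.0113). Mep1b, a meprin subunit, fell by 0.87 ± 0.21 (SE) and Papln by 0.63 ± 0.11 (SE). Of 6 tested shed ligands and proteoglycan substrates, 2 rose and 3 fell. Vcan, which encodes versican, a substrate of Adamts4 and Adamts9, had ratios of 2.98, 2.54 and 2.20 in MUT pools 1 to 3, against 0.20, -0.15 and -0.72 in WT pools 1 to 3. It rose 6.97-fold (log2 2.80 ± 0.27 SE, adjusted p = 0.000513). The epidermal growth factor family ligands Hbegf, Nrg1 and Btc fell by 1.46 ± 0.12, 0.98 ± 0.13 and 0.89 ± 0.14 (SE), while Tgfa, seen above background in 1 of 3 WT pools, rose by 0.47 ± 0.12 (SE). Both Adamtsl1 and Tgfa entered the test only through the MUT pools, where they were high, so their calls are descriptions.

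**Figure D4:**
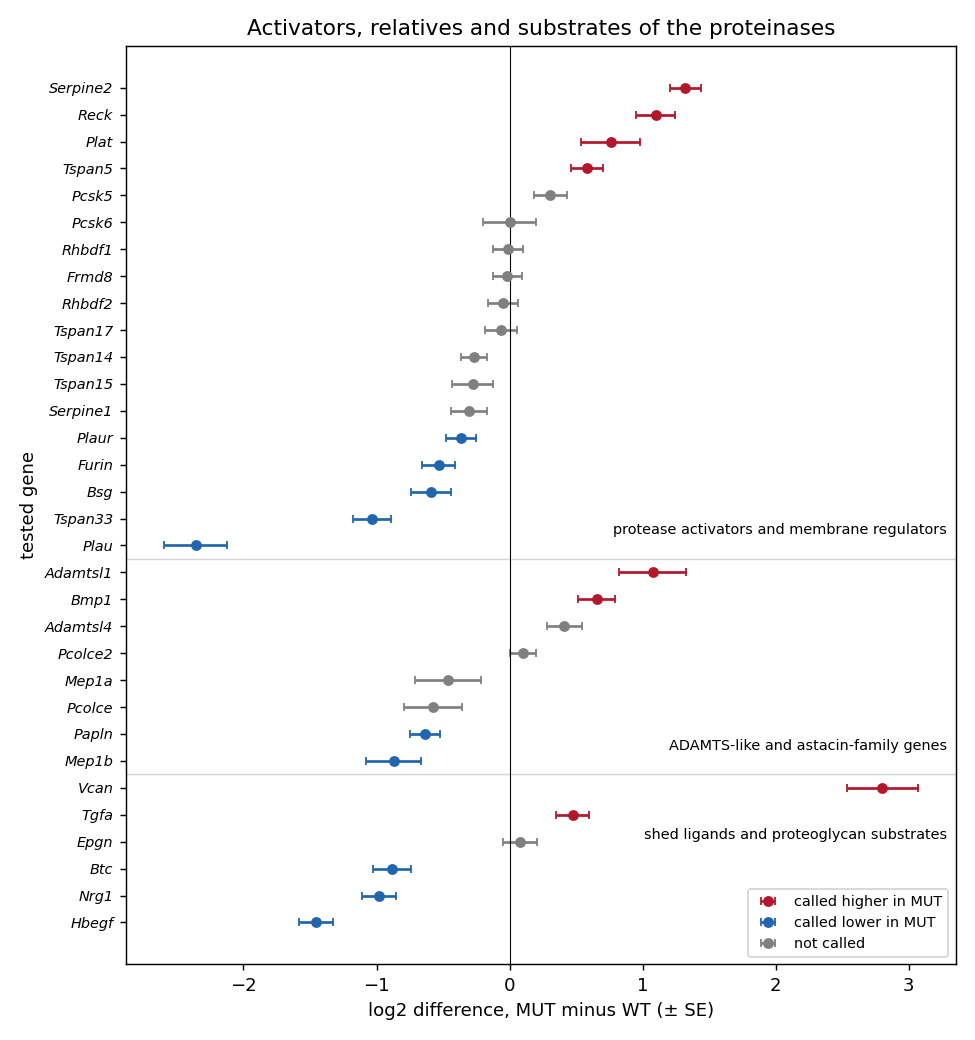
Log2 difference between MUT and WT pools (x axis, ± SE, 3 pools per group) for the 32 tested genes of the 3 lists, separated by grey lines. Red points were called higher in MUT pools (8), blue points lower (10) and grey points were not called (14), and Vcan at 2.80 and Plau at -2.36 are the extremes.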

How the data were processed

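Each of 6 pools (3 MUT, 3 WT) was hybridised to a 2-colour Agilent array, with the pool in Cy5 and WT pool 1 in Cy3. Labels call the pools replicates of a group but do not say how many animals each held. The p-values therefore refer to variation between pools, not between animals. The deposited scanner files hold spot intensity per channel on a linear scale, for which the submitters' processing notes name Agilent Feature Extraction 10.7.3.1. The deposited value table holds the log10 ratio of Cy5 over Cy3, and it was used as an alternative after conversion to log2 from the deposited log10 values.

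Median spot signals were corrected with normexp (offset 50) and normalised within arrays by loess, without control spots, in limma 3.58.1 (R 4.3.3). Spots flagged as outliers were left out and spots of a probe averaged. A probe was tested where its Cy5 signal was well above background in every pool of a group, using limma (lmFit, eBayes) with Benjamini-Hochberg adjustment over 29002 probes and calls at an adjusted p under 0.05. Every SE and p-value is the moderated one of this fit, in which the variance of each probe is drawn towards that of all tested probes. A gene takes its brightest tested probe. Probes were named by RefSeq accession (GRCm38.p6 table), which gave 27509 probes a gene. The procedure was also run on simulated data. These had few changed probes, independent noise in each pool and no added slide row effect. They therefore do not test the calls under the many changes and the row split seen here.

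Values in every pool are given for each tested Timp and each called member, and for the 2 members per family with the smallest p that were not called. In the related lists differences are given for up to 3 genes per list and direction and for Plat, with values in every pool for Plau and Vcan. Plat, Mmp14, Mmp8, Adamts1, Adamts18 and single named genes were added after their values were seen. Members and lists were chosen with earlier results of these data known. Alternatives changed the background correction, scaling, filter, values, blocks, variance model, probe summary or left out a pool.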

Additional observations from a re-analysis of the deposited data

How the results depend on the processing

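Of the 17 calls among the members, 7 held in every alternative. Every rise kept its direction, which leaving out 1 pool or scaling to spike-in controls could not have changed. The slide row as a block ended 10 of these calls, spike-in controls 4 and median centring 3. Of the 7584 probes called, 44.2% were higher in MUT pools, against 77.3% of 6033 with median centring, 98.9% of 19160 with spike-in controls and 31.5% of 2193 with the slide row as a block. With spike-in controls 27 members rose and 0 fell, and 17 related genes rose and 1 fell. With the slide row as a block 7 members rose and 0 fell, the 4 falls staying between -0.69 and -0.43, and 3 related genes rose and 4 fell. Median centring left 1 member and 5 related genes lower. Spike-in controls add 0.95 to every difference, so any smaller fall turns positive by construction: Adam15 0.30, Adam22 0.50, Adam32 0.23, Adamts16 0.42, Adamts18 0.91, Bsg 0.36, Btc 0.063, Frmd8 0.93, Furin 0.42, Mep1b 0.076, Papln 0.31, Plaur 0.59, Rhbdf1 0.94, Rhbdf2 0.90 and Tspan17 0.88. The cause of the other changes was not tested.

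Leaving out 1 pool gave 3830 to 9531 called probes, 11 to 15 members higher and 2 to 5 lower, and 4 to 9 related genes higher and 6 to 11 lower. The lowest probe counts were 3830 without WT pool 3 and 4891 without WT pool 1. Without MUT pool 2 or WT pool 1, 2 members fell. Without WT pool 3, 4 related genes rose and 6 fell, and without WT pool 1, 6 fell. Adamts2 was lost in 9 of 19 settings: the authors' deposited value table, scanner processed signals, no filter, the trended robust variance model, the slide row, and without MUT pool 2, MUT pool 3, WT pool 2 or WT pool 3. Scanner processed signals gave larger differences for Adamts19 (2.86), Adam23 (2.12) and Adam32 (-1.56).

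The pool numbers were not taken as pairs, since deviations of same-numbered pools correlated at 0.143, 0.0724 and 0.197, although every pool correlated best with its own number. With the pool number as a replicate block 7248 probes were called, and 14 members rose and 4 fell, with Adamts15 added (0.54, adjusted p = 0.0132). Signal near background limits the 32 members that were not tested.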
